A study of Arabidopsis thaliana with 9 samples.

Results

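The comparison described here set the Arabidopsis thaliana pwr-2 mutant against wild type, and its members were the libraries that the labels call pwr and Col: 6 of the 9 RNA-seq libraries of the study. The pwr-2 group held 3 libraries of seedlings carrying the pwr-2 allele of POWERDRESS, and the WT group held 3 libraries of unmutated seedlings. The remaining 3 libraries came from the hda9-1 mutant of HISTONE DEACETYLASE 9 and were used to estimate the spread between replicates and for one closing comparison. All 3 groups were in the Col background and were whole seedlings taken after 10 days on MS agar in long days, given as biological replicates. The labels used here name the pwr-2 and hda9-1 alleles without describing the lesions, and they do not say how many seedlings went into 1 library. Per the series title, the study concerns an interaction between POWERDRESS and HDA9 in the deacetylation of histone H3. The question put to these libraries was which transcripts differ between seedlings without normal POWERDRESS and wild type.

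POWERDRESS (PWR) is a nuclear protein with SANT domains, a fold found in many subunits of chromatin complexes that bind histone tails. HDA9 is a histone deacetylase of the RPD3 class, an enzyme that takes acetyl groups off histone lysines. Acetylated histones are typical of transcribed genes, and deacetylases are commonly described as repressors, although loss of a deacetylase can be followed by both higher and lower transcript levels.

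The 3 pwr-2 libraries held 8261697, 9398515 and 8955101 counts on genes, and the 3 WT libraries held 10184314, 11150773 and 8260650. A level is given in CPM (a gene's count scaled to the library's total on tested genes, after trimmed-mean adjustment). A gene with 3 counts, the lowest level treated as detected, had 0.259 to 0.369 CPM in these 6 libraries. The most abundant gene, GUN5, took 0.0747% to 0.0901% of the counts of a library. Whether duplicate reads were removed, which would lower the levels of the most abundant genes, is not given in the sources used here. Correlations of log2 CPM across genes were 0.987 to 0.991 among pwr-2 libraries, 0.985 to 0.990 among WT libraries and 0.959 to 0.971 between the groups, as a description over genes that are not independent. Markers of leaf mesophyll were abundant in both groups: RBCS1A, a small subunit of Rubisco, had 485, 507 and 482 CPM in pwr-2 and 469, 462 and 450.2 CPM in WT. Of 15 root markers, only 5 passed the filter on low counts, and the root hair and root tip genes EXPA7, RHD6, LRX1, SMB, PLT1 and PLT2 had 11, 6, 11, 2, 13 and 6 counts over all 9 libraries. Of those that passed, PHO1, SHR and SCR had means of 71.6, 46.1 and 76.7 CPM in pwr-2 and 62.9, 41.3 and 73.6 CPM in WT. WOX5 and CASP1 were low, with means of 1.25 and 2.08 CPM in pwr-2 and 2.03 and 1.89 CPM in WT. The root markers thus differed widely in level: the root hair and root tip genes named above were almost without counts. How much root tissue the samples held was not measured.

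PWR itself (AT3G52250, chr3:19376138-19383369, plus strand, TAIR10.1) had 43.5, 57.2 and 45.5 CPM in pwr-2, 188, 198 and 188 CPM in hda9-1 and 145, 144 and 133 CPM in WT. Every pwr-2 library was far below every WT library. PWR had a log2 fold change of -1.53 in pwr-2 relative to WT, with a standard error (SE) of 0.088 and an adjusted p of 1.23e-06 by edgeR's quasi-likelihood test with Benjamini-Hochberg adjustment over all tested genes. Transcripts of the gene were reduced and not absent, with 353, 532 and 400 counts in the pwr-2 libraries and 1531, 1668 and 1125 in the WT libraries. HDA9 (AT3G44680, chr3:16226519-16230009, minus strand) had 35.7, 31.2 and 31.0 CPM in pwr-2, 7.16, 7.40 and 6.56 CPM in hda9-1 and 38.4, 39.3 and 36.5 CPM in WT. It fell by 0.23 on the log2 scale in pwr-2 relative to WT (SE 0.072, edgeR adjusted p = 0.0326), a call that was lost with DESeq2 (adjusted p = 0.151) and, with edgeR, without WT replicate 1 or 2 or pwr-2 replicate 2 or 3 (adjusted p = 0.102 to 0.128).

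Of 20171 genes tested, 6326 differed between pwr-2 and WT at an adjusted p under 0.05, which is 31.4% of those tested. They divided into 3232 higher in pwr-2 (16% of those tested) and 3094 lower in pwr-2 (15.3%). Most of these differences were small: the median absolute log2 fold change of the calls was 0.376, and 64.5% of them were under 0.5. A log2 fold change of at least 1 was reached by 267 genes called higher (1.32%) and by 458 genes called lower (2.27%). In 261 of the 267 and in 445 of the 458, all 3 pwr-2 libraries lay on one side of all 3 WT libraries, which was the case for 25.6% of all tested genes on the higher side and 24.7% on the lower side. Upper-quartile scaling moved the median over all genes by -0.0793 on the log2 scale, and the division was then 2203 higher and 4552 lower. With DESeq2 12.8% of tested genes were higher and 9.91% lower. The count of calls ran from 3917 without pwr-2 replicate 2 to 7581 without hda9-1 replicate 3, and it was 4126 without WT replicate 1.

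The direction of change followed expression level. When the tested genes were divided into 5 classes of equal size by mean level, the median log2 fold change was -0.268 in the lowest class, then -0.145, -0.043, 0.0394 and 0.115 in the highest. In the lowest class 846 genes were lower and 287 higher in pwr-2, whereas in the highest class 76 were lower and 1243 higher. Of the 458 large falls, 394 lay in the lowest class. After an offset that takes this trend out (loess over mean level), all 267 large rises and 316 of the 458 large falls were still called in the same direction, and the class medians lay between -0.0276 and -0.00774. With that offset 13.2% of tested genes were higher in pwr-2 and 13.9% lower. Gene groups are therefore given with their value under that offset wherever it alters what can be said. Every count of list members called stands against the shares over all tested genes, 16% higher and 15.3% lower. A count near those shares says nothing particular about its list. In bulk seedlings, fewer cells of a type and less RNA per cell cannot be told apart, which holds for every fall reported here.

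**Figure D1:**
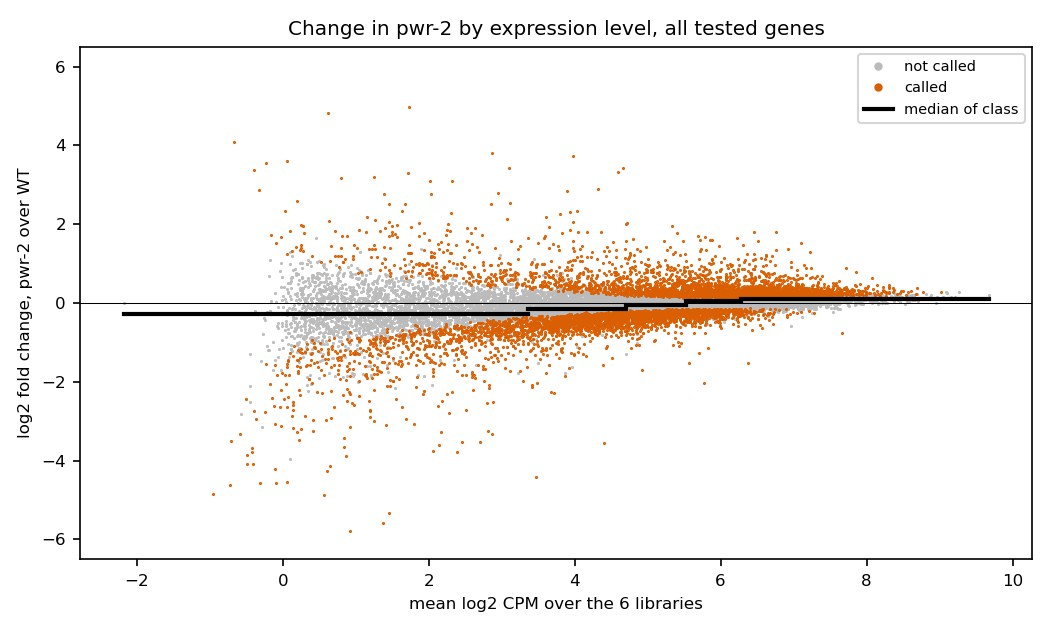
Log2 fold change of pwr-2 over WT (vertical axis) against mean log2 CPM over the 6 libraries (horizontal axis), 1 point per tested gene, with called genes coloured and the medians of the 5 expression classes marked. The class medians climb from -0.268 at the low end to 0.115 at the high end, while the genes of largest rise stand clear of the trend.

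The largest log2 fold changes among genes called higher were those of AT1G33760 (4.99), which has no symbol in the annotation, and of LRX2, a leucine-rich repeat extensin gene, with 5.05, 6.34 and 6.26 CPM in pwr-2 and 0.0947, 0.346 and 0.118 CPM in WT (log2 fold change 4.82, SE 0.40, edgeR adjusted p = 1.19e-05). Both were near the floor in WT. Among called genes with a symbol, groups that did not overlap and a mean of 1 log2 CPM or more over the 6 libraries, the 15 leading rises included 3 XTH genes of the cell wall, 2 genes of ACC synthases and 1 gene each of ABA removal and auxin synthesis. ACS11, which makes the ethylene precursor ACC, had 21.8, 29.3 and 28.7 CPM in pwr-2 and 1.23, 1.38 and 3.31 CPM in WT, a log2 fold change of 3.82 (SE 0.24, edgeR adjusted p = 1.89e-06). DREB26, a transcription factor of the AP2/ERF superfamily, had 49.4, 58.8 and 59.9 CPM in pwr-2 and 2.94, 4.24 and 5.79 CPM in WT (log2 fold change 3.73, SE 0.16). In both genes the lowest pwr-2 library was several times above the highest WT library.

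CYP707A3, an ABA 8'-hydroxylase that removes the hormone, had 89.1, 90.5 and 91.4 CPM in pwr-2 and 3.51, 4.58 and 19.4 CPM in WT (log2 fold change 3.42, SE 0.33, edgeR adjusted p = 3.03e-05). The pwr-2 libraries were nearly equal, while WT replicate 3 stood well above the other WT libraries. PHI-1, a member of the EXORDIUM family induced by phosphate supply in tobacco cells, had 69.1, 78.0 and 80.9 CPM in pwr-2 and 5.12, 6.40 and 12.3 CPM in WT (log2 fold change 3.31, SE 0.19). YUC5, a flavin monooxygenase of auxin synthesis, had 12.3, 15.4 and 15.02 CPM in pwr-2 and 0.853, 1.12 and 3.31 CPM in WT (log2 fold change 3.09, SE 0.31). Groups that do not overlap were a condition for entering the leading rises, and in both genes WT replicate 3 was again the highest WT library.

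The other leading rises were XTR6 (the xyloglucan enzyme XTH23; log2 fold change 3.44), ACS8 (3.29), XTH18 (2.79), RAS1 (2.76), the wall-associated kinase gene WAKL2 (2.53), the calmodulin-like CML38 (2.33), the zinc finger gene ZF1 (2.33), GPAT2 (2.32), PGSIP7 (2.06) and XTH25 (1.99), with adjusted p between 3.4e-07 and 0.00226 (edgeR). WT replicate 3 was the highest WT library in 13 of these 15 leading rises, and in 175 of all 267 large rises. Without it the count of large rises was 312. The genes of smallest adjusted p combined a large change with very even libraries. AT1G50040, which has no symbol in the annotation, had 48.3, 57.6 and 55.8 CPM in pwr-2 and 6.73, 7.26 and 7.67 CPM in WT (log2 fold change 2.90, SE 0.11, edgeR adjusted p = 1.27e-07). MYB70, an R2R3 MYB factor, had 61.2, 66.6 and 65.5 CPM in pwr-2 and 21.2, 24.6 and 26.1 CPM in WT (log2 fold change 1.43, SE 0.073).

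**Figure D2:**
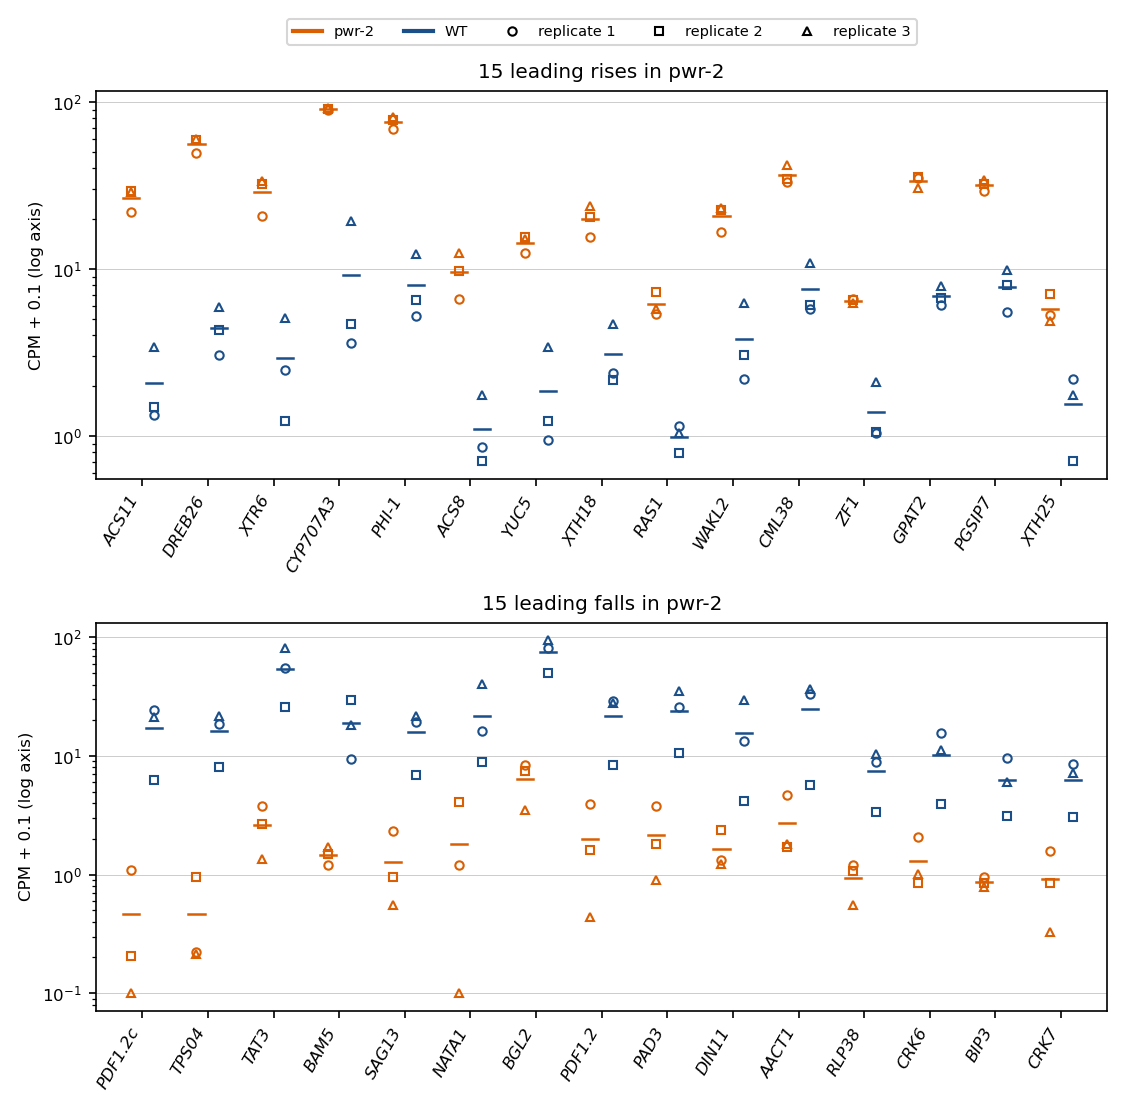
Level of the 15 leading rises and the 15 leading falls in pwr-2, as CPM plus 0.1 on a log axis, 1 point per library, with pwr-2 to the left of WT and a bar at each group's mean. In the rises the pwr-2 points of a gene sit close together above a WT group with replicate 3 on top in 13 genes, and in the falls the WT points are spread widely with replicate 2 lowest in 14 genes.

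Many genes of the cell wall rose. Xyloglucan endotransglucosylase/hydrolases (XTH) cut and rejoin the xyloglucan that ties cellulose microfibrils together: of 33 listed, 24 were tested, 15 rose and 2 fell, with a median log2 fold change of 0.44 against -0.00619 over all tested genes. The 2 falls numbered 1 after the loess offset and were not called with DESeq2 or without WT replicate 1, WT replicate 2 or pwr-2 replicate 3, and the rises numbered 12 to 15 whichever library was left out. TCH4 (XTH22), a touch-induced member, had 189, 205 and 215 CPM in pwr-2 and 46.8, 53.6 and 75.9 CPM in WT (log2 fold change 1.80, SE 0.15). XTH17 had 29.4, 29.8 and 29.4 CPM in pwr-2 and 14.7, 13.9 and 15.2 CPM in WT (log2 fold change 1.02, SE 0.074, edgeR adjusted p = 4.01e-06). Neither gene's groups overlapped, and in XTH17 the replicates of each group were nearly equal.

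The EXORDIUM family, named for a gene that promotes brassinosteroid-linked growth, had mostly rises: of 7 tested members 6 rose and 1 was not called, with a median log2 fold change of 0.95. The same count of rises was found with the loess offset, with upper-quartile scaling and with DESeq2. EXO had 129, 128 and 137 CPM in pwr-2 and 38.4, 41.6 and 46.4 CPM in WT (log2 fold change 1.64, SE 0.089, edgeR adjusted p = 8.82e-07), and EXL5 had 167, 176 and 177 CPM in pwr-2 and 64.3, 65.2 and 75.0 CPM in WT (log2 fold change 1.35, SE 0.078). EXL2, EXL4 and EXL3 rose by less, with log2 fold changes of 0.95, 0.88 and 0.61. LRX3, a leucine-rich repeat extensin that links the wall to signalling at the plasma membrane, had 217, 240.1 and 239.6 CPM in pwr-2 and 80.9, 77.1 and 86.4 CPM in WT (log2 fold change 1.51, SE 0.076). Arabinogalactan and fasciclin-like proteins, glycoproteins of the wall and membrane surface, had 38 tested members, of which 24 rose and 2 fell (median log2 fold change 0.27). FLA9 had 94.5, 99.97 and 97.6 CPM in pwr-2 and 49.7, 48.2 and 54.1 CPM in WT (log2 fold change 0.95), and AGP17 had a log2 fold change of 0.79. FLA10 fell by 0.70 on the log2 scale. The other fall of that list was not called after the loess offset, without WT replicate 3 or without pwr-2 replicate 1 or 2.

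Expansins, a superfamily named for members that loosen walls without cutting them, divided by branch. Wall loosening was not measured. The expansin-like A genes EXLA1, EXLA2 and EXLA3 were the 3 rises among 22 tested expansins. EXLA1 had 70.0, 80.6 and 81.7 CPM in pwr-2 and 19.9, 22.4 and 26.3 CPM in WT (log2 fold change 1.77, SE 0.10), and EXLA2 had 36.1, 40.0 and 40.1 CPM in pwr-2 and 11.7, 13.4 and 15.1 CPM in WT (log2 fold change 1.54, SE 0.089). By contrast 7 other expansins fell, 4 of them without WT replicate 1 or without pwr-2 replicate 3. Of these EXPA15 had 37.9, 38.4 and 37.7 CPM in pwr-2 and 68.5, 61.5 and 62.7 CPM in WT (log2 fold change -0.76, SE 0.065, edgeR adjusted p = 1.5e-05). Among 12 tested cellulose synthase subunits and their partners, 10 rose and 1 fell, with 4 rises after the loess offset and 6 without WT replicate 1, pwr-2 replicate 1 or pwr-2 replicate 2. CSI1, which couples the synthase to microtubules, had 353, 330.4 and 352 CPM in pwr-2 and 244, 255 and 276 CPM in WT (log2 fold change 0.42). The fall was in CESA9, a catalytic subunit best known from seed coats, with 2.46, 5.59 and 5.01 CPM in pwr-2 and 11.5, 11.8 and 13.8 CPM in WT (log2 fold change -1.49).

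Ethylene synthesis showed changes in both directions among enzymes of one step. ACC synthases make up the regulated step of the pathway, and ACS11, ACS8, ACS7 and ACS6 were the 4 rises among 9 tested genes of the list. ACS6, the most abundant of those, had 113, 110.3 and 101 CPM in pwr-2 and 38.7, 56.6 and 85.3 CPM in WT (log2 fold change 0.86, SE 0.19, edgeR adjusted p = 0.00558). Its WT libraries were widely spread while its pwr-2 libraries were close together, and the groups did not overlap. The list also held 2 falls, the ACC synthase gene ACS4 (log2 fold change -1.06) and ACO1 (-0.66), which encodes an ACC oxidase of the following step. These falls were not called without WT replicate 2 and numbered 1 with DESeq2, without WT replicate 1 or without any single pwr-2 library.

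Of 9 tested auxin synthesis genes YUC5 was the 1 rise, and YUC2, TAA1 and YUC4 fell (log2 fold changes -0.91, -0.31 and -0.78). Those falls numbered 1 after the loess offset, with DESeq2 or without any single WT library or pwr-2 replicate 3. Auxin response genes included more rises than falls. Among 25 tested Aux/IAA genes, which encode short-lived repressors that auxin induces, 8 rose and 1 fell, and that fall was not called with DESeq2, the loess offset or without any single WT library. IAA6 had 9.60, 9.78 and 12.6 CPM in pwr-2 and 2.75, 2.16 and 3.78 CPM in WT (log2 fold change 1.91, SE 0.21), and IAA19 had 22.8, 22.8 and 22.9 CPM in pwr-2 and 14.3, 14.0 and 14.2 CPM in WT (log2 fold change 0.69). GH3 enzymes join amino acids to auxin or related acids, and 4 of 7 tested rose while 2 fell, with the same counts after the loess offset, with upper-quartile scaling and with DESeq2. The falls were GH3.9 and GH3.12 (PBS3), and PBS3 is given again below as a gene of salicylate synthesis, not of auxin response. WES1 (GH3.5) had 114, 107 and 112 CPM in pwr-2 and 57.1, 62.6 and 77.9 CPM in WT (log2 fold change 0.76), and GH3.9 had 15.6, 14.1 and 14.9 CPM in pwr-2 and 26.3, 24.99 and 22.3 CPM in WT (log2 fold change -0.73).

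Of 64 tested SAUR genes, small auxin-up RNAs, 16 rose and 6 fell. The falls numbered 3 without WT replicate 1 or without pwr-2 replicate 2, and the median log2 fold change was 0.05, with 0.22 after the loess offset and -0.03 with upper-quartile scaling. SAUR79 had 8.99, 9.57 and 10.9 CPM in pwr-2 and 3.51, 3.20 and 3.66 CPM in WT (log2 fold change 1.51), and SAUR15 had 3.20, 3.55 and 3.30 CPM in pwr-2 and 8.34, 7.35 and 6.61 CPM in WT (log2 fold change -1.15). In each of these Aux/IAA, GH3 and SAUR examples the groups were fully apart.

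Other hormone lists held calls as well. GA2OX2, which inactivates gibberellins, had 32.1, 39.6 and 42.1 CPM in pwr-2 and 10.8, 10.1 and 11.9 CPM in WT (log2 fold change 1.80, SE 0.11, edgeR adjusted p = 1.28e-06), and GA20OX2, which makes their precursors, had a log2 fold change of 1.42. GA3OX2, which makes the active forms, fell by 1.10. Of 8 tested gibberellin genes 3 rose and 1 fell, with 5 rises after the loess offset. Brassinosteroid genes gave 7 rises among 15 tested, with 4 rises after the loess offset and 3 with upper-quartile scaling, without WT replicate 1, without WT replicate 2 or without any single pwr-2 library. The receptor gene BRI1 had 294, 279 and 279 CPM in pwr-2 and 200.01, 198 and 214 CPM in WT (log2 fold change 0.48). For ABA, 5 of 24 tested receptor and signalling genes rose, where 16% of all tested genes were higher. The list had 1 fall, which was not called without WT replicate 1, and 2 falls without hda9-1 replicate 3. PP2CA, a phosphatase that restrains ABA signalling, had 125, 133 and 133 CPM in pwr-2 and 75.8, 79.9 and 75.8 CPM in WT (log2 fold change 0.76, SE 0.053), and the receptor PYL5 had a log2 fold change of 0.93. Together with CYP707A3, CYP707A1 of the same hydroxylase family rose (log2 fold change 0.98, with 15.6, 17.0 and 17.3 CPM in pwr-2 and 7.96, 9.69 and 7.44 CPM in WT). Of 10 tested genes of ABA synthesis and turnover 3 rose and 1 fell. The other rise was the synthesis gene NCED3 (log2 fold change 0.49, edgeR adjusted p = 0.0399). Its groups overlapped, and it was not called after the loess offset or with upper-quartile scaling. ABA2, also of synthesis, fell by 0.36, and the hydroxylase genes CYP707A2 and CYP707A4 were not called.

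Many transcription factors of rapid stress responses rose. Of 21 tested ERF factors 13 rose and 3 fell, with a median log2 fold change of 0.46 with 11 rises and 1 fall after the loess offset. ERF104, a target of the immune kinase MPK6, had 133, 131 and 122 CPM in pwr-2 and 37.7, 57.6 and 68.0 CPM in WT (log2 fold change 1.25, SE 0.14, edgeR adjusted p = 0.000103). ERF6 had 106, 107 and 99.9 CPM in pwr-2 and 20.2, 35.5 and 49.4 CPM in WT (log2 fold change 1.60, SE 0.20). The pwr-2 libraries of both genes were nearly equal, while WT replicate 1 was the lowest and WT replicate 3 the highest of a wide WT group. ERF53 was among the falls, with 1.11, 0.860 and 0.455 CPM in pwr-2 and 4.55, 4.41 and 3.42 CPM in WT (log2 fold change -2.35).

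Stress zinc fingers of the C2H2 type, repressors induced by drought, cold and light stress, included 5 rises among 7 tested, with a median log2 fold change of 1.20. STZ (ZAT10) had 71.9, 69.3 and 60.3 CPM in pwr-2 and 18.6, 28.9 and 40.7 CPM in WT (log2 fold change 1.21, SE 0.19), and RHL41 (ZAT12) had 19.1, 19.9 and 19.1 CPM in pwr-2 and 4.83, 4.24 and 11.8 CPM in WT (log2 fold change 1.52, SE 0.27). Calmodulin-like genes, some of them first found as touch genes, gave 4 rises among 10 tested, and the other 6 were not called. Heat shock factors gave 6 rises and 2 falls among 18 tested, with 1 fall after the loess offset, with DESeq2 or without WT replicate 3, pwr-2 replicate 2 or pwr-2 replicate 3. They were led by HSFA3 with 35.9, 39.7 and 38.8 CPM in pwr-2 and 15.8, 17.8 and 17.9 CPM in WT (log2 fold change 1.15, SE 0.076), followed by HSFA8 (log2 fold change 0.80).

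Larger factor families had calls in both directions, and WRKY falls, R2R3 MYB rises and NAC rises were near the shares over all tested genes (15.3% lower, 16% higher). WRKY factors, regulators of immunity and senescence, gave 14 rises and 8 falls among 54 tested, with 9 rises and 3 falls without WT replicate 1, 2 falls without pwr-2 replicate 1, 5 falls without WT replicate 2 or pwr-2 replicate 3, and 13 falls with upper-quartile scaling. Their median log2 fold change was -0.06, and 0.05 after the loess offset. WRKY33, needed for camalexin production, had 118, 115 and 124 CPM in pwr-2 and 44.4, 46.3 and 77.3 CPM in WT (log2 fold change 1.10, SE 0.15), and WRKY18 had 36.7, 44.7 and 46.8 CPM in pwr-2 and 19.1, 14.9 and 22.1 CPM in WT (log2 fold change 1.21). WRKY54, a senescence and salicylate-linked member, had 13.4, 15.5 and 14.0 CPM in pwr-2 and 35.2, 29.6 and 30.7 CPM in WT (log2 fold change -1.15, SE 0.16).

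R2R3 MYB factors gave 12 rises and 17 falls among 70 tested, with 10 falls without WT replicate 1 and a median that was -0.12 and, after the loess offset, 0.05. The rises included the closely related MYB77, MYB73 and MYB70. MYB77 had 108, 107 and 97.9 CPM in pwr-2 and 28.04, 38.1 and 50.1 CPM in WT (log2 fold change 1.45, SE 0.14), and MYB73 had 140.0, 134 and 139.8 CPM in pwr-2 and 58.2, 68.6 and 87.6 CPM in WT (log2 fold change 0.96). MYB4, a repressor of sinapate ester synthesis, fell by 0.67. Among 70 tested NAC factors 13 rose and 3 fell, with 7 rises without WT replicate 2 and 8 without pwr-2 replicate 1. The falls numbered 1 without WT replicate 1, 2 or 3 or without pwr-2 replicate 2, and 5 without hda9-1 replicate 3.

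**Figure D3:**
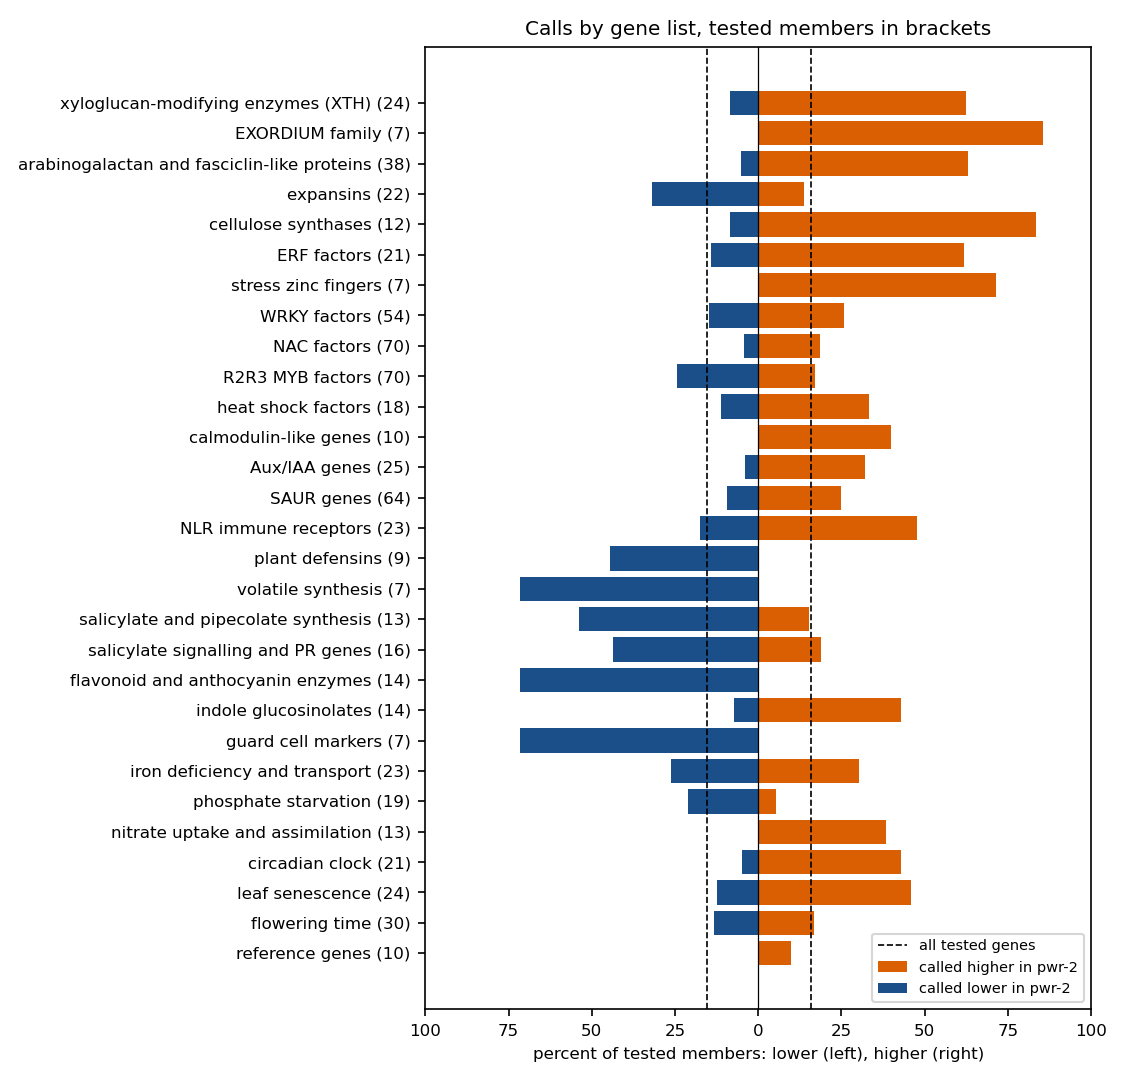
Percent of the tested members of each gene list called higher and called lower in pwr-2 relative to WT, with dashed lines at the share over all tested genes (16% higher, 15.3% lower). EXORDIUM, zinc finger, cellulose, XTH, ERF and arabinogalactan lists stand above the higher line, and volatile, flavonoid and guard cell lists above the lower line.

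A match to CGCGTT, the core letters of the rapid stress response element that is known from calcium-dependent and wound induction in Arabidopsis, was looked for on both strands from 250 bases before to 50 bases after the annotated start of each gene. It was present in 34 of 266 promoters of large rises (12.8%), in 25 of 457 promoters of large falls (5.47%) and in 751 of all 20090 promoters of tested genes (3.74%). With the 250 bases before the start alone, the shares were 10.5%, 3.72% and 2.78%. Of 21 promoters of the leading and smallest-p rises, 4 held it in those 250 bases, and they are printed because these genes change strongly and carry the same 6 letters at different distances from the start. They run 5' to 3' on the strand of the gene, from the genome of assembly TAIR10.1 with starts from its RefSeq annotation, and the capitals mark AACGCG, which is CGCGTT read on the opposite strand. The first capital lies 100 bases before the start in PHI-1 (chr1:12851733-12851982, plus strand), 137 in ACS8 (chr4:17751829-17752078, plus strand), 6 in YUC5 (chr5:17650376-17650625, minus strand) and 76 in XTH18 (chr4:14827212-14827461, minus strand).
PHI-1: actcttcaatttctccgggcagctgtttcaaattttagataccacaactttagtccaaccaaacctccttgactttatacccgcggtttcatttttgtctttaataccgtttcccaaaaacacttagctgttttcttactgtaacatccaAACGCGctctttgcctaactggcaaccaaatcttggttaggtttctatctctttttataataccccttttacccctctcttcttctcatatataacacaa
ACS8: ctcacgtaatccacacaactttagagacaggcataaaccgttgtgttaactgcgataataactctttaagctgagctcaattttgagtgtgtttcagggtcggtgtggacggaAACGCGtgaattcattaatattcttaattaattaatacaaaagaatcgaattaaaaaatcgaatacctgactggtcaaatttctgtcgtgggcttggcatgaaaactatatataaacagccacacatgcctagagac
YUC5: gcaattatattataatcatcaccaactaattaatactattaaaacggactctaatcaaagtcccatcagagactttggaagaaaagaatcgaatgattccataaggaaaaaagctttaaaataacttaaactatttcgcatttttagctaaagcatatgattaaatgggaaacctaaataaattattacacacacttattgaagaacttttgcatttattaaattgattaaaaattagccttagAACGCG
XTH18: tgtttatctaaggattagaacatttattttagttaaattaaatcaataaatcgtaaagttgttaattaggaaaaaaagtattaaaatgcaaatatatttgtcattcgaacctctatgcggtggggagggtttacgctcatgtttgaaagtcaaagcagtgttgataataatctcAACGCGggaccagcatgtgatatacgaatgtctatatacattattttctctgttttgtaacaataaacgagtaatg

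The 4 printed genes had log2 fold changes of 3.31, 3.29, 3.09 and 2.79, while DREB26, with 3.73, held no copy in the same window. TTGAC, the core of the W-box that WRKY factors bind, was in 62.0% of the promoters of large rises, 56.5% of those of large falls and 50.4% of all. TGGGCC, the site II element common in promoters of ribosomal and other housekeeping genes, was in 8.27% of the promoters of large rises, 9.85% of those of large falls and 18.9% of all. For GCCGCC, the GCC box of ERF factors, the shares were 2.63%, 2.19% and 2.66% in the same order, and for CACGTG, the G-box, they were 7.14%, 6.78% and 8.71%. These shares were counted over the promoters and were not tested, and a match is only a run of letters.

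The 15 leading falls in pwr-2, taken by the same limits as the leading rises, included genes known from defence and others, such as the beta-amylase gene BAM5. TPS04, the terpene synthase that makes geranyllinalool for leaf volatiles, had 0.123, 0.860 and 0.114 CPM in pwr-2 and 18.7, 7.96 and 21.5 CPM in WT (log2 fold change -5.34, SE 0.73, edgeR adjusted p = 0.00036). TAT3, a tyrosine aminotransferase induced by jasmonate, had 3.69, 2.58 and 1.25 CPM in pwr-2 and 54.6, 25.7 and 80.9 CPM in WT (log2 fold change -4.41, SE 0.97). BGL2 (PR2), a beta-1,3-glucanase of the salicylate response, had 8.25, 7.31 and 3.41 CPM in pwr-2 and 80.4, 49.8 and 94.3 CPM in WT (log2 fold change -3.56, SE 0.77). In all 3 genes the WT libraries were widely spread with WT replicate 2 the lowest, while groups that do not overlap were a condition for entering this list.

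PAD3, the last enzyme of camalexin synthesis, had 3.69, 1.72 and 0.797 CPM in pwr-2 and 25.7, 10.5 and 35.4 CPM in WT (log2 fold change -3.53, SE 0.80, edgeR adjusted p = 0.00707), and SAG13, a senescence-associated gene, had 2.22, 0.860 and 0.455 CPM in pwr-2 and 19.2, 6.83 and 21.5 CPM in WT (log2 fold change -3.75). Wide spread within a genotype was not limited to WT. The hda9-1 libraries had 1.68, 0.110 and 9.02 CPM for SAG13 and 3.48, 0 and 21.5 CPM for the defensin gene PDF1.2. BAM5, a beta-amylase, differed from the pattern in its WT group, with 1.11, 1.40 and 1.59 CPM in pwr-2 and 9.29, 29.7 and 18.1 CPM in WT (log2 fold change -3.78, SE 0.43). In BAM5 WT replicate 1 was the lowest WT library, whereas WT replicate 2 was the lowest in the other 14 of the 15 leading falls. Over all 458 large falls, the lowest WT library was replicate 1 in 85, replicate 2 in 196 and replicate 3 in 177. The count of large falls was 308 without WT replicate 1, 230 after the loess offset and 574 without hda9-1 replicate 3. Of the 15, NATA1, PDF1.2, AACT1 (AT5G61160), CRK6 and CRK7 each lost the call in at least 1 fit that left out a library. Without WT replicate 1, pwr-2 replicate 2 or pwr-2 replicate 3 the adjusted p (edgeR) was 0.062 to 0.0749 for PDF1.2, 0.0526 to 0.0696 for AACT1 and 0.06 to 0.0638 for CRK7. Without pwr-2 replicate 1 it was 0.0509 for NATA1, and without pwr-2 replicate 2 it was 0.0529 for CRK6. With DESeq2 the adjusted p was 0.102 for PDF1.2, 0.092 for CRK7 and 0.0793 for NATA1.

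Of 9 tested plant defensins, small antifungal proteins, 4 fell and 5 were not called (median log2 fold change -0.54). PDF1.2c had 0.985, 0.107 and 0 CPM in pwr-2 and 24.3, 6.23 and 21.1 CPM in WT (log2 fold change -5.58, SE 1.21, edgeR adjusted p = 0.0054), and pwr-2 replicate 3 held no count. The PDF1 genes are near-identical copies, so reads may have been divided among them and their single values are uncertain. Volatile synthesis genes, which make leaf terpenes and green leaf volatiles, gave 5 falls among 7 tested, also with the loess offset, with upper-quartile scaling and with DESeq2 (median log2 fold change -0.88). CHAT, which makes hexenyl acetate, had 2.95, 2.15 and 1.59 CPM in pwr-2 and 6.92, 7.09 and 7.32 CPM in WT (log2 fold change -1.67, SE 0.28). HPL1, a hydroperoxide lyase gene, had 11.3, 10.5 and 11.7 CPM in pwr-2 and 21.98, 16.7 and 23.5 CPM in WT (log2 fold change -0.88). Enzyme activity and volatiles were not measured. For CHAT and HPL1 the WT libraries were much more even than for TPS04, and the groups did not overlap.

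Most of the called salicylate genes fell, and the rises in both salicylate lists were near the share over all tested genes (16% higher). Of 13 tested genes of salicylate and pipecolate synthesis 7 fell and 2 rose, with 4 falls without WT replicate 1 or pwr-2 replicate 3 and 1 rise without any of WT replicates 1 and 2 or the 3 pwr-2 libraries. PBS3, which makes the direct precursor of salicylate, had 9.72, 8.49 and 7.28 CPM in pwr-2 and 29.4, 21.8 and 29.0 CPM in WT (log2 fold change -1.65, SE 0.31). Salicylate signalling and PR genes gave 7 falls and 3 rises among 16 tested, with 1 rise without pwr-2 replicate 2 and 5 rises without hda9-1 replicate 1. NIMIN-2, an early salicylate-induced gene, fell by 1.20, whereas NPR3, a salicylate receptor that restrains defence, had 84.7, 110.3 and 111 CPM in pwr-2 and 53.0, 57.0 and 58.6 CPM in WT (log2 fold change 0.86, SE 0.094).

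NLR immune receptors went mostly the other way, with 11 rises and 4 falls among 23 tested, 8 rises and 5 falls after the loess offset, and 2 falls without pwr-2 replicate 1 or 2. The helper receptor ADR1 had 48.7, 56.9 and 52.9 CPM in pwr-2 and 28.7, 27.5 and 32.6 CPM in WT (log2 fold change 0.85, SE 0.084), and its relative ADR1-L2 had 149, 147 and 149.7 CPM in pwr-2 and 61.4, 64.7 and 88.6 CPM in WT (log2 fold change 1.06, SE 0.12). SUMM2 fell by 0.60. The calls among jasmonate synthesis genes were 3 rises and 2 falls of 17 tested, near the shares over all tested genes (16% higher, 15.3% lower). There were 5 rises without WT replicate 3 and 1 fall after the loess offset, with DESeq2 or without WT replicate 3, pwr-2 replicate 1 or pwr-2 replicate 3. LOX4, a lipoxygenase of that pathway, had 41.2, 43.2 and 41.0 CPM in pwr-2 and 16.0, 12.4 and 26.4 CPM in WT (log2 fold change 1.23, SE 0.21). Of 11 tested JAZ repressors 4 rose and 1 fell: JAZ1 had 44.2, 41.6 and 34.1 CPM in pwr-2 and 22.3, 20.1 and 29.0 CPM in WT (log2 fold change 0.76), and JAZ10 had 7.51, 7.85 and 5.01 CPM in pwr-2 and 11.8, 10.9 and 13.2 CPM in WT (log2 fold change -0.81). Jasmonate output genes gave 3 rises and 2 falls among 13 tested, TAT3 among the falls, and the falls were near the share over all tested genes (15.3% lower). The rises numbered 1 after the loess offset, with upper-quartile scaling or without WT replicate 1, WT replicate 2, pwr-2 replicate 1 or pwr-2 replicate 2.

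Markers of the stomatal lineage were lower in pwr-2. Of 7 guard cell markers tested 5 fell and 2 were not called, and 5 fell also with the loess offset, with upper-quartile scaling and with DESeq2. SPCH, which starts the lineage, had 15.5, 13.4 and 15.4 CPM in pwr-2 and 22.8, 23.3 and 21.7 CPM in WT (log2 fold change -0.62, SE 0.089, edgeR adjusted p = 0.000502). MUTE, which ends the divisions of the stem-like cells, had 4.31, 4.94 and 4.89 CPM in pwr-2 and 8.15, 8.91 and 8.50 CPM in WT (log2 fold change -0.85, SE 0.21). The guard cell factor MYB60 had 18.0, 17.4 and 18.2 CPM in pwr-2 and 26.5, 27.6 and 23.6 CPM in WT (log2 fold change -0.54, SE 0.10). In each of these the 3 pwr-2 libraries lay below all WT libraries.

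FMA (FAMA) fell by 0.23 and OZS1 (the anion channel SLAC1, whose exons overlap another gene over 43% of their bases) fell by 0.47. KAT1 had 46.0, 47.6 and 48.5 CPM in pwr-2 and 59.0, 59.8 and 44.9 CPM in WT, and HT1 had 15.5, 10.2 and 9.103 CPM in pwr-2 and 14.2, 13.6 and 12.9 CPM in WT, with overlapping groups in both and no call. The summed level of the 7 markers was 172, 159 and 164 CPM in pwr-2 and 218, 219 and 193 CPM in WT.

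Markers of other cell types were also listed. MYB0 (GL1), which starts trichomes, had 3.45, 4.94 and 3.64 CPM in pwr-2 and 8.15, 6.57 and 7.67 CPM in WT (log2 fold change -0.88, SE 0.18). It was 1 of 2 falls among 5 tested trichome markers, which were 1 after the loess offset, with DESeq2 or without WT replicate 1, WT replicate 2, hda9-1 replicate 2 or pwr-2 replicate 1, and 4 without hda9-1 replicate 3. The summed level of 5 mesophyll markers was 2717, 2661 and 2564 CPM in pwr-2 and 2404, 2369 and 2522 CPM in WT. Of 7 vascular markers 3 rose, 1 of them after the loess offset, with upper-quartile scaling or without WT replicate 1 or any single pwr-2 library. SUC2 of the phloem had 214, 201 and 197 CPM in pwr-2 and 162, 164 and 165 CPM in WT (log2 fold change 0.32, SE 0.078).

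STM, which maintains the shoot meristem, had 33.5, 32.1 and 29.2 CPM in pwr-2 and 20.0, 18.2 and 21.3 CPM in WT (log2 fold change 0.68, SE 0.085, edgeR adjusted p = 0.000201). SEP3, a floral organ gene, had 33.4, 29.7 and 27.7 CPM in pwr-2 and 16.9, 17.4 and 21.0 CPM in WT (log2 fold change 0.72, SE 0.10). The pwr-2 libraries were above all WT libraries in both. The meristem list held 2 rises among 9 tested and the floral list 2 among 9. In each of these lists 1 rise was called with upper-quartile scaling or without WT replicate 1, WT replicate 3, pwr-2 replicate 2 or pwr-2 replicate 3, and in the meristem list also without hda9-1 replicate 2 or pwr-2 replicate 1. In the floral list 1 rise was called with DESeq2, and in the meristem list 1 fall was called after the loess offset.

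Flavonoid enzymes fell. Of 14 tested enzymes of flavonoid and anthocyanin synthesis 10 fell and 4 were not called (median log2 fold change -0.53), with 9 falls after the loess offset and 9 with DESeq2. DFR, the first enzyme of the anthocyanin branch, had 5.05, 4.19 and 4.44 CPM in pwr-2, 2.21, 2.54 and 1.80 CPM in hda9-1 and 13.5, 13.9 and 15.2 CPM in WT (log2 fold change -1.64, SE 0.15, edgeR adjusted p = 1.83e-05). TT4, the chalcone synthase at the entry of the pathway, had 48.6, 39.2 and 38.5 CPM in pwr-2 and 60.2, 64.8 and 67.2 CPM in WT (log2 fold change -0.61, SE 0.082). LDOX had 7.02, 4.62 and 2.62 CPM in pwr-2 and 12.3, 11.2 and 13.8 CPM in WT (log2 fold change -1.39, SE 0.27). The groups did not overlap in any of the 3 genes, and in LDOX the pwr-2 libraries were the more spread of the groups.

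Of 12 tested flavonoid regulators 4 fell and 2 rose, the rises near the share over all tested genes (16% higher). MYB111, an activator of flavonol enzymes, had 5.91, 5.05 and 5.12 CPM in pwr-2 and 10.2, 13.0 and 11.5 CPM in WT (log2 fold change -1.11), and TT8, a bHLH factor of the anthocyanin branch, fell by 1.59. HY5, a light-response factor known to activate many flavonoid genes, had 11.9, 13.7 and 12.4 CPM in pwr-2 and 20.4, 18.4 and 19.8 CPM in WT (log2 fold change -0.62, SE 0.12). Indole glucosinolate genes gave 6 rises and 1 fall among 14 tested, with 2 falls after the loess offset. CYP79B3, which makes the shared precursor, had 105, 105 and 97.9 CPM in pwr-2 and 65.9, 63.1 and 74.7 CPM in WT (log2 fold change 0.60), and its regulator MYB51 had 58.1, 70.1 and 71.1 CPM in pwr-2 and 30.7, 27.3 and 38.8 CPM in WT (log2 fold change 1.06, SE 0.11). Aliphatic glucosinolate genes gave 2 falls among 15 tested, near the share over all tested genes (15.3% lower). The falls numbered 6 after the loess offset or with upper-quartile scaling, 4 without WT replicate 3 and 1 without WT replicate 1. MYB76 of that branch fell by 0.72.

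Nutrient genes moved in each direction. Of 13 tested nitrate genes 5 rose (median log2 fold change 0.14), and 1 fell with upper-quartile scaling or without hda9-1 replicate 1 or 3. The nitrate reductase genes NIA1 and NIA2 had log2 fold changes of 0.43 and 0.45, and the transporter NRT1.1 of 0.44. ASN1, an asparagine synthetase that rises in darkness and low sugar, had 113, 141 and 144 CPM in pwr-2 and 35.4, 47.2 and 63.2 CPM in WT (log2 fold change 1.46, SE 0.16, edgeR adjusted p = 8.29e-05), with every pwr-2 library above every WT library.

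Of 19 tested phosphate starvation genes 4 fell and 1 rose, and that rise was not called after the loess offset, with upper-quartile scaling, with DESeq2 or without any single library of pwr-2, WT replicate 1 or WT replicate 3. PS2 (AT1G73010), a phosphatase induced by phosphate shortage, had 4.55, 2.79 and 1.71 CPM in pwr-2 and 9.47, 27.4 and 14.8 CPM in WT (log2 fold change -2.53, SE 0.40). MGDC (MGD3), a galactolipid synthase of the same response, had 3.45, 3.22 and 3.19 CPM in pwr-2 and 9.76, 20.2 and 14.3 CPM in WT (log2 fold change -2.17, SE 0.28). WT replicate 2 was the highest library in both genes, the reverse of its place in the defence genes.

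Iron genes gave 7 rises and 6 falls among 23 tested. FRU (FIT), the root regulator of iron uptake, had 1.60, 2.04 and 1.25 CPM in pwr-2 and 5.50, 4.76 and 4.72 CPM in WT (log2 fold change -1.60, SE 0.26), and BTS, an iron-binding ligase that restrains the response, had 259, 269 and 279 CPM in pwr-2 and 190.2, 197 and 203 CPM in WT (log2 fold change 0.45). FER4, a ferritin that stores iron, had 45.4, 42.2 and 44.2 CPM in pwr-2 and 58.2, 59.2 and 63.9 CPM in WT (log2 fold change -0.46, SE 0.06). FRU was low in all libraries, and its groups did not overlap. Besides BTS, the rises were BHLH101 (log2 fold change 0.70), FRO3 (0.39), YSL2 (0.33), OPT3 (0.31) and, given below, bHLH38 (0.84) and BHLH100 (0.70). The list thus had no single direction.

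Clock, flowering and senescence lists held calls in both directions. Of 21 tested clock genes 9 rose and 1 fell, and that fall was not called without WT replicate 1 or 2 or pwr-2 replicate 1 or 2. The falls numbered 3 after the loess offset and 2 with upper-quartile scaling or without WT replicate 3 or hda9-1 replicate 1. GI, a large clock protein that links the day to flowering, had 301, 279 and 283 CPM in pwr-2 and 218, 220.3 and 228 CPM in WT (log2 fold change 0.37, SE 0.083). Of 30 tested flowering genes 5 rose and 4 fell, both near the shares over all tested genes (16% higher, 15.3% lower). The falls numbered 2 after the loess offset or without WT replicate 1, WT replicate 2 or pwr-2 replicate 3. FT, the mobile flowering signal, had 17.8, 17.4 and 16.8 CPM in pwr-2 and 11.8, 13.1 and 13.2 CPM in WT (log2 fold change 0.45, SE 0.10, edgeR adjusted p = 0.00774). TEM1, a repressor of FT, had 107, 113 and 112 CPM in pwr-2 and 61.6, 71.6 and 79.8 CPM in WT (log2 fold change 0.65), and SPL9, which promotes the adult phase, had 32.3, 32.4 and 33.0 CPM in pwr-2 and 46.9, 48.0 and 42.6 CPM in WT (log2 fold change -0.50). The groups did not overlap in FT, TEM1 or SPL9. Of 24 tested senescence genes 11 rose and 3 fell, with 7 rises without WT replicate 1 or pwr-2 replicate 1, 6 without pwr-2 replicate 2, and 5 falls with upper-quartile scaling. SAG13, given above among the leading falls, was 1 of the falls.

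Photosynthesis genes depended on the scaling. Of 21 antenna protein genes 6 were called higher with a median log2 fold change of 0.16, while after the loess offset 1 was higher, 1 was lower and the median was -0.02. The higher calls numbered 1 without WT replicate 1, WT replicate 2 or pwr-2 replicate 1, 2 without pwr-2 replicate 2 and 14 without hda9-1 replicate 3. Photosystem and Rubisco genes had a median of 0.14, and -0.05 after the loess offset. The 10 reference genes had a median of 0.11, and -0.02 after the offset, so that the antenna and photosystem medians were close to those of the reference genes under either scaling. Of 17 tested deacetylases and partners 5 fell, the mutated gene PWR and HDA9 among them, with 1 rise after the loess offset and 3 falls with DESeq2 or without WT replicate 1, WT replicate 2 or pwr-2 replicate 2. HDT4, a plant-specific deacetylase, had 26.8, 28.1 and 28.3 CPM in pwr-2 and 34.3, 34.2 and 36.7 CPM in WT (log2 fold change -0.34, SE 0.061). HDA6, the deacetylase best known for silencing repeats, had 51.6, 48.7 and 48.7 CPM in pwr-2 and 49.5, 51.6 and 51.1 CPM in WT, with overlapping groups.

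The pwr-2 and hda9-1 mutants were set against each other directly to find where pwr-2 seedlings stood apart. With edgeR 85 genes differed, 0.421% of those tested: 63 were higher in pwr-2 (0.312%) and 22 lower (0.109%), and 53 of the 85 were also called in pwr-2 against WT. This count depended on single libraries: it was 9 without pwr-2 replicate 1, 11 without pwr-2 replicate 2, 252 without pwr-2 replicate 3, 10 without hda9-1 replicate 1, 11 without hda9-1 replicate 2, 49 without hda9-1 replicate 3, 27 without WT replicate 2 and 148 without WT replicate 3. With DESeq2 it was 184. Only PWR and HDA9, the mutated genes, kept the call in all 9 fits that left out a library among the 10 largest differences that were also called against WT. That ranking leaves out genes not called in pwr-2 against WT. YSL1, of the iron transport list, was higher in pwr-2 than in hda9-1 by 0.87 on the log2 scale (SE 0.075, edgeR adjusted p = 0.000295). NAS3 (1.97) and ZAT6 (1.37) were others (edgeR adjusted p = 0.0434 and 0.042). Their calls without single libraries are not given here. An absent call in this comparison does not show that the mutants had equal levels.

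bHLH38, a bHLH factor of iron deficiency, had 4.43, 6.88 and 4.67 CPM in pwr-2, 15.5, 14.4 and 15.4 CPM in hda9-1 and 1.99, 3.46 and 3.54 CPM in WT, with a log2 difference of -1.49 between pwr-2 and hda9-1 (SE 0.203, edgeR adjusted p = 0.0151). Another gene overlaps 35.7% of its exon bases. BHLH100, of the same subgroup, had 9.36, 11.7 and 13.4 CPM in pwr-2, 26.7, 26.3 and 29.8 CPM in hda9-1 and 4.45, 7.70 and 9.45 CPM in WT (log2 difference from hda9-1 -1.25, SE 0.191). In both genes the pwr-2 mean lay between those of hda9-1 and WT, and every hda9-1 library was above every pwr-2 library. The rise of bHLH38 over WT was not called without WT replicate 1 or pwr-2 replicate 2 (edgeR adjusted p = 0.0747 and 0.102). That of BHLH100 was not called without WT replicate 1, WT replicate 2, pwr-2 replicate 2 or pwr-2 replicate 3 (edgeR adjusted p = 0.0572 to 0.108).

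DREB1A (CBF3), a cold-response factor, had 9.97, 8.17 and 6.49 CPM in pwr-2, 2.84, 3.76 and 2.62 CPM in hda9-1 and 18.9, 20.8 and 14.2 CPM in WT. It fell in pwr-2 relative to WT (log2 fold change -1.14, SE 0.18, edgeR adjusted p = 0.000956), and its level in pwr-2 was above that in hda9-1 (log2 difference 1.39, SE 0.233, edgeR adjusted p = 0.0337). PUB19, a ubiquitin ligase that restrains ABA and drought responses, had 13.4, 10.1 and 7.40 CPM in pwr-2, 3.69, 2.87 and 3.44 CPM in hda9-1 and 4.17, 6.92 and 7.08 CPM in WT (log2 difference from hda9-1 1.62, SE 0.268). In PUB19 the pwr-2 libraries were the highest of the 3 groups, whereas in DREB1A the WT libraries were. The rise of PUB19 over WT was not called without WT replicate 1, pwr-2 replicate 1 or pwr-2 replicate 2 (edgeR adjusted p = 0.0777 to 0.138). These 4 differences between the mutants were called in 6, 4, 3 and 3 of the 9 fits that left out a library, in the order bHLH38, BHLH100, DREB1A and PUB19.

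**Figure D4:**
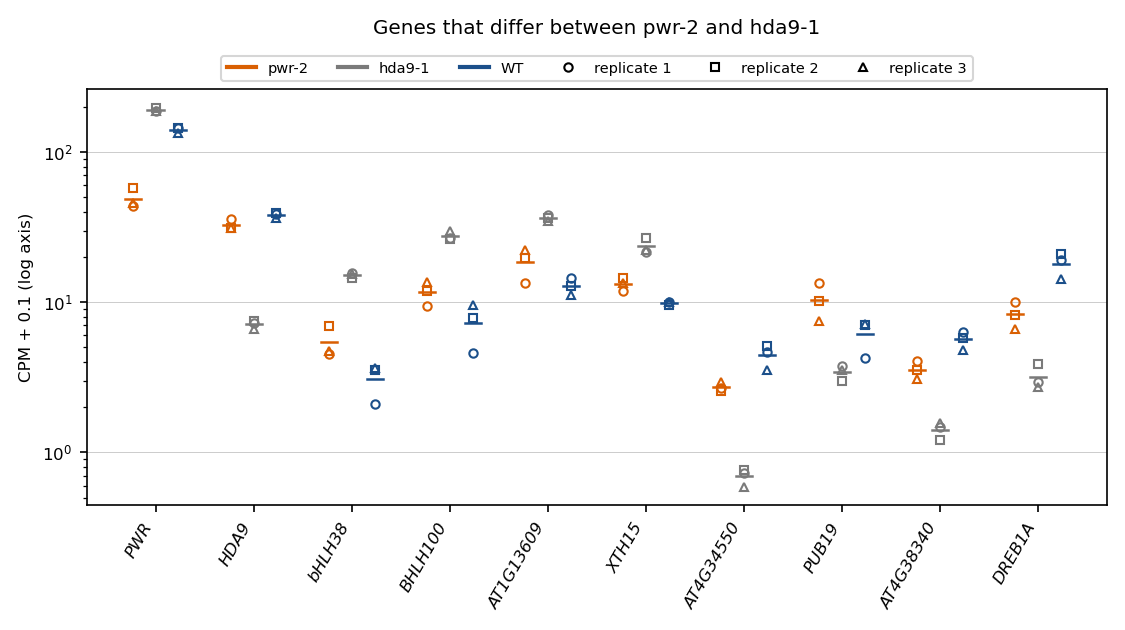
Level in CPM of the 10 genes with the largest differences between pwr-2 and hda9-1 among those also called in pwr-2 against WT, 1 point per library in the order pwr-2, hda9-1, WT. PWR is low only in pwr-2 and HDA9 only in hda9-1, and in bHLH38, BHLH100 and DREB1A the pwr-2 libraries lie between or next to those of the other groups.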

How the data were processed

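PolyA RNA of 3 pwr-2, 3 hda9-1 and 3 WT seedling samples was sequenced from stranded libraries made with dUTP, per the labels' protocols. The submitters' processing notes name HISAT2 as a tool and TAIR10 as the build. The table deposited by the authors holds whole-number read counts per gene, with no normalization. How reads were counted (tool, strand setting, duplicates, multiple hits) is not given in the sources used here, so reads of overlapping genes or near-identical copies may stand under the wrong gene. Of 29420 identifiers, 4396 had no count in any library and 28932 were named from the RefSeq annotation of TAIR10.1. That annotation has no symbol for AT3G52250, which is called PWR here.

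Counts were fitted with edgeR 4.0.16 (R 4.3.3, limma 3.58.1): filterByExpr, TMM factors, 1 coefficient per genotype over all 9 libraries, and the quasi-likelihood F-test with Benjamini-Hochberg adjustment over 20171 genes. A gene was called at an adjusted p under 0.05. SEs were taken as the absolute log2 fold change over the root of its F statistic. These SEs include the spread between replicates, while the floor values cover counting error only. The labels call the replicates biological without naming separate cultures, so the p-values measure the spread between these samples. The fit was tested on simulated counts of 20044 genes with known changes. Changes of 0.5, 1 and 2 on the log2 scale were recovered in 64.2%, 91% and 100% of the changed genes, with 11 false calls. Only 66 or 67 genes were changed at each size, so the simulation does not show how the fit does when as many genes differ as were called here.

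The text names PWR and HDA9, the 15 leading rises and 15 leading falls (largest log2 fold changes of called genes that have a symbol, non-overlapping groups and, on average, 1 log2 CPM or more), genes among the 10 of smallest adjusted p, members of 61 lists by smallest adjusted p or known role, the longest runs of called neighbours and the 5 largest differences each way from hda9-1. The members and lists were chosen with earlier results of these data known. Alternatives were upper-quartile and RLE factors, a loess offset over mean level (span 0.3), no filter on low counts, the 6 pwr-2 and WT libraries alone, a replicate block, leaving out each library in turn, and DESeq2 1.42.0. Promoter letters were searched in the TAIR10.1 genome.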

Additional observations from a re-analysis of the deposited data

Results flagged for a closer look

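The genes given here differed between pwr-2 and hda9-1 by the direct test of that difference (edgeR adjusted p under 0.05). By that test the effects of the 2 mutations relative to WT were not equal in them. Apart from PWR and HDA9, each call was lost in some fits that left out a library, so those differences remain uncertain. All were also called in pwr-2 against WT, so genes that differed from hda9-1 without a call against WT are not in this section. Values are log2 differences of pwr-2 over hda9-1. The mutated genes were among them, with PWR at -1.969 (edgeR adjusted p = 2.03e-07) and HDA9 at 2.197 (edgeR adjusted p = 1.88e-07), and both were called in all 9 fits that left out a library.

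Lower in pwr-2 than in hda9-1 were bHLH38 at -1.491, BHLH100 at -1.254, AT1G13609 at -0.9689 and XTH15 at -0.8422, with edgeR adjusted p of 0.0151, 0.0225, 0.0204 and 0.0151. AT1G13609 had 13.4, 19.7 and 22.3 CPM in pwr-2, 37.8, 36.1 and 34.7 CPM in hda9-1 and 14.5, 12.8 and 11.1 CPM in WT. XTH15, with 31.6% of its exon bases overlapped by another gene, had 11.7, 14.3 and 13.3 CPM in pwr-2, 21.6, 26.6 and 22.3 CPM in hda9-1 and 9.95, 9.51 and 9.92 CPM in WT. In both, every hda9-1 library was above every pwr-2 library.

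Higher in pwr-2 than in hda9-1 were AT4G34550 at 2.092, PUB19 at 1.622, AT4G38340 at 1.392 and DREB1A at 1.391, with edgeR adjusted p of 0.0204, 0.0337, 0.042 and 0.0337. AT4G34550 had 2.58, 2.47 and 2.84 CPM in pwr-2, 0.632, 0.663 and 0.492 CPM in hda9-1 and 4.55, 5.02 and 3.42 CPM in WT. AT4G38340 had 3.94, 3.44 and 2.96 CPM in pwr-2, 1.37, 1.10 and 1.48 CPM in hda9-1 and 6.25, 5.71 and 4.72 CPM in WT. Both genes were lowest in hda9-1 and highest in WT. DFR, the anthocyanin enzyme, was also higher in pwr-2, at 1.029 (SE 0.188, edgeR adjusted p = 0.0434). Its fall relative to WT was the smaller of those in the 2 mutants.

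Apart from PWR and HDA9, these differences were called in 2 to 7 of the 9 fits that left out a library, and the highest adjusted p (edgeR) over those fits was 0.101 to 0.198. The calls of AT1G13609, AT4G34550, AT4G38340 and XTH15 against WT were each lost in at least 4 of those fits.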

How the results depend on the processing

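The loess offset assumes that the median change is the same at every expression level, and the scaling methods assume that most genes did not differ; neither assumption can be tested within these counts. Genes near the floor carry large SEs, so their fold changes are imprecise. After the loess offset the log2 fold changes of RBCS1A and GUN5, which were not called, were -0.1219 and -0.02292, opposite in sign to those without it; the offset lowers the values of abundant genes by construction.

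In pwr-2 against WT the counts of calls were 5458 with the loess offset, 4588 with DESeq2, 6755 with upper-quartile factors, 6292 with RLE factors, 6352 without the filter, 7608 with the 6 libraries alone and 6251 with the replicate block. DESeq2 called 1998 genes lower, against 3094 in edgeR, and the loess offset left 230 large falls, against 458; the cause was not tested. Leaving out 1 library gave 3917 to 7581 calls, 2120 to 3978 higher, 1797 to 3603 lower, 232 to 312 large rises and 308 to 574 large falls.

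The 85 calls of pwr-2 against hda9-1 became 184 with DESeq2, 152 with the loess offset, 179 without the filter, 87 with upper-quartile factors, 85 with RLE factors and 113 with the replicate block, and 9 to 252 when 1 library was left out; the cause was not tested. Samples of pwr-2 and WT with the same replicate number did not deviate together from their group means (r = -0.123, -0.014 and -0.128 across genes). Samples with different numbers had r from -0.148 to 0.226. With 3 samples a group these values cannot show whether samples were handled together, and the main fit did not pair them. Several counts of list members moved by over 1.5 times with the loess offset, upper-quartile factors or DESeq2, as given beside the lists in the report, and in addition NAC falls numbered 1 after the loess offset and 6 with upper-quartile factors, against 3, and antenna protein rises numbered 3 with upper-quartile factors, against 6. Of 155 tested genes named in the text and followed through the alternatives, 18 lost their call against WT under at least 1 alternative: HDA9, NATA1, AACT1, PDF1.2, CRK6, CRK7, bHLH38, BHLH100, TAA1, YUC4, XTH15, PUB19, AT1G13609, AT4G34550, AT4G38340, MIR841a, PP2-B14 and AT1G74205. The losses numbered 12 with DESeq2, 7 with the loess offset, 2 with upper-quartile factors, 1 with the replicate block and 0 to 15 when 1 library was left out. RBCS1A and GUN5 were the only 2 of the 155 to change sign. Named genes outside the 155, NCED3 among them, are not in these counts.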

Other observations

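Large changes in the same direction lay next to each other at several places. Among tested genes ordered along the chromosomes there were 48 runs of at least 2 neighbours called the same way with a 1 or larger log2 fold change, holding 107 genes; 41 were runs of 2, 5 of 3 and 2 of 5. One run of 5 falls covered chr1:22650111-22664502, from AT1G61390 (log2 fold change -1.53) to AT1G61420 (-1.13, with 57.3% of exon bases shared). The other covered chr4:7879558-7893761, with UNE15 (-1.99), HTA4 (-1.68), MIR841a, AT4G13572 (-1.57) and AT4G13575 (-1.18).

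Shorter runs of 3 rises were PP2-B13 (1.71), AT1G56242 (1.80) and PP2-B14 (1.18), of which the first pair overlap each other, and AT2G32190 (1.35), AT2G32200 (3.19) and AT2G32210 (1.51). AT2G32200 had 3.69, 7.74 and 7.74 CPM in pwr-2 and 0.474, 0.519 and 1.18 CPM in WT. A run of 3 falls was RLP14 (-1.02), RLP16 (-1.46) and AT1G74205 (-1.09, with 82.8% of exon bases shared). PP2-B14 was not called with DESeq2 (adjusted p = 0.0933), and AT1G74205 was not called with DESeq2 (adjusted p = 0.112) or after the loess offset (adjusted p = 0.159).

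Some of the sharpest rises were in genes with no symbol in the annotation, and the 2 given next were chosen after their values were seen. AT1G33760 had 13.4, 17.4 and 20.5 CPM in pwr-2 and 0.0947, 0.346 and 1.30 CPM in WT (log2 fold change 4.99, SE 0.37, edgeR adjusted p = 4.8e-06), with the WT level near the floor. AT1G77640 had 8.86, 11.6 and 12.3 CPM in pwr-2 and 1.33, 1.21 and 1.30 CPM in WT (log2 fold change 3.09, SE 0.20). The groups did not overlap in either gene.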
